A study of Rattus norvegicus with 65 samples.

Results

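Transcripts of 7 receptor genes were followed in the rat hypothalamus. Fgfr1, Fgfr2, Fgfr3 and Fgfr4 encode the receptors for fibroblast growth factors (FGFs), Klb encodes the co-receptor beta-Klotho, Gpbar1 the membrane bile acid receptor TGR5, and Ffar4 the long-chain fatty acid receptor GPR120. They were taken by gene symbol from a table of 38513 genes, and all 7 were found in it. RNA was measured in 65 male Wistar rats, 1 library per animal, in 2 experimental periods (batches A and B). Rats were 9 to 10 weeks old at the start, and the study describes 6 weeks of high-fat feeding before the intervention. The label of the lean animals says no more than that they were lean. The groups were RYGB (Roux-en-Y gastric bypass, 14 animals, 11 of them in batch A), sham operation (11 animals, 5 in batch A), sham operation with food restricted to match RYGB (BWM, body weight-matched, 7 animals, all in batch A), lean (6 animals, all in batch A), saline (8 animals, 3 in batch A), liraglutide at 0.4 mg/kg/day (5 animals, all in batch B), PYY3-36 at 0.1 mg/kg/day (4 animals, all in batch B) and PYY3-36 + liraglutide at the same doses (10 animals, 5 in batch A). BWM animals were rationed to the food intake of RYGB animals, the other operated or treated animals chose freely between high- and low-fat diets, and tissue was taken 4 weeks after the intervention following a 10 h fast.

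FGF receptors are tyrosine kinases at the cell surface that bind FGFs with heparan sulfate, while the endocrine FGFs of gut and liver need a Klotho co-receptor in addition. Beta-Klotho serves FGF21 and the bile acid-induced ileal FGF (Fgf15 in mouse, Fgf19 in human), and alpha-Klotho, encoded by Kl, serves FGF23. TGR5 and GPR120 are G protein-coupled receptors that sense bile acids and unsaturated fatty acids, and gastric bypass is known to change the circulating levels of their ligands. In bulk tissue, fewer cells of a type and less RNA per cell cannot be told apart.

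Between 20040821 and 36539714 reads were assigned to genes per library, with medians of 29571483 (batch A) and 23385849 (batch B). The summed CPM (the counts of a gene relative to the library total, as scaled by edgeR's TMM method) of 10 hypothalamic marker genes, among them Pmch, Avp and Oxt, ran from 47.7 to 8202. In 12 of 65 libraries this sum was at or below 177, whereas the other 53 lay at 442.7 or above. These 12 comprised 3 sham, 2 saline, 2 lean and 2 liraglutide libraries and 1 each of BWM, PYY3-36 and PYY3-36 + liraglutide, but none of RYGB. One library, BWM replicate 5, held 76830 CPM of 8 anterior pituitary markers, of which growth hormone (Gh1) made 62720, against at most 1125 in the other 64. Pituitary transcripts were thus abundant in a library labelled hypothalamus.

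The 7 genes fell into 3 abundance classes. Expressed per exon length (RPKM, over 65 libraries), Fgfr3 had a median level of 30.0 (17.7 to 43.3), Fgfr1 of 29.4 (18.2 to 57.3) and Fgfr2 of 15.4 (9.32 to 29.6). Fgfr4, better known from liver, had a median RPKM of 0.457 (0 to 1.99). Ffar4 reached a median RPKM of 0.0733 with a highest value of 5.82, and Klb and Gpbar1 both had a median of 0. Fgfr1 exceeded Fgfr2 in all 65 libraries, Fgfr3 exceeded Fgfr2 in 63, and Fgfr2 exceeded Fgfr4 in all 65. Fgfr3 and Fgfr1 were not separated by level, since Fgfr3 was the higher in 31 of 65 libraries. Of the summed RPKM of the 4 receptors, Fgfr3 took a median of 39.2%, Fgfr1 39.1%, Fgfr2 19.4% and Fgfr4 0.544%. Relative to all tested genes, the median RPKM of Fgfr3 and Fgfr1 stood at the 86.8th and 86.5th percentile, that of Fgfr2 at the 76.2th, Fgfr4 at the 21.6th and Ffar4 at the 6.18th. The coefficient of variation of CPM over the 65 libraries was 18.5% for Fgfr3, 22% for Fgfr2, 26% for Fgfr1, 77.7% for Fgfr4 and 407% for Ffar4.

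Promoter regions are shown for the abundant Fgfr2 and Fgfr3 and the nearly silent Klb and Gpbar1, whose base composition differed. RefSeq promoter sequences (assembly GRCr8, 300 bases from 250 before to 50 after the gene start, read 5' to 3' on the gene's strand) were found for 6 of the 7 genes, all but Fgfr1. Capitals mark each CG, the motif searched, which reads the same on both strands.
Fgfr2, chr1:194280865-194281164, minus strand: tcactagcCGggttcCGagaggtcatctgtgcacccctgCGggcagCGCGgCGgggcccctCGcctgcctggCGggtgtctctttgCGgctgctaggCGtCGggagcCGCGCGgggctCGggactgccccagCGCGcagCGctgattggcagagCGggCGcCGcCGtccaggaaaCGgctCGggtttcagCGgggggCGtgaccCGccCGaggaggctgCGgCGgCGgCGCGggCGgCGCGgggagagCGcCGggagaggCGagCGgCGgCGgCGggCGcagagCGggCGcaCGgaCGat
Fgfr3, chr14:81227160-81227459, minus strand: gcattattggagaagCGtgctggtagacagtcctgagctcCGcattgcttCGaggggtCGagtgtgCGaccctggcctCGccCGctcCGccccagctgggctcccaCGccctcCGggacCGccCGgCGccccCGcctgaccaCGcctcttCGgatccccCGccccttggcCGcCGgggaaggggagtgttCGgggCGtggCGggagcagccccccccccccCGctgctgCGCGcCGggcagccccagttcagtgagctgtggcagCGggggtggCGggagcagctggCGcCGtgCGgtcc
Klb, chr14:43304483-43304782, minus strand: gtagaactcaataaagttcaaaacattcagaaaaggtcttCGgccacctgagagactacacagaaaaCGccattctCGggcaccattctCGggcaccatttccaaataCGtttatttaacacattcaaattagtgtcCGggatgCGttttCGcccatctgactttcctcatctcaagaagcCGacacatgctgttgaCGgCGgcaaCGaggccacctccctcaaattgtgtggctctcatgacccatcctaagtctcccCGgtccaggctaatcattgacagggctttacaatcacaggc
Gpbar1, chr9:83309645-83309944, plus strand: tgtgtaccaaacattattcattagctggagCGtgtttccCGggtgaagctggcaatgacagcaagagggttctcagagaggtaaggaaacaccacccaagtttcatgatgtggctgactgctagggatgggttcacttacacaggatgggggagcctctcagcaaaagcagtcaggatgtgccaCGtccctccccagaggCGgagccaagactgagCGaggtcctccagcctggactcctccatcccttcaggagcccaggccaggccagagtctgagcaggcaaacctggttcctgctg
The window of Fgfr2 held 48 CG, and 1.04% of the 33469 promoters in the RefSeq table held as many or more, against a median of 7. Fgfr3 followed with 31 (9.31% held as many or more), Ffar4 with 20 (24.2%), Fgfr4 with 14 (33.5%) and Klb with 13 (35.3%). The Gpbar1 window held 5, a number reached by 62.0% of promoters. The order did not follow abundance throughout, since Ffar4 held more CG than the more abundant Fgfr4. CG counts describe these windows only, and methylation was not measured.

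In the authors' assembly (Rnor_6.0), Fgfr1 lies at chr16:71265390-71319046 (minus strand), Fgfr2 at chr1:200590951-200696946 (minus) and Fgfr3 at chr14:82272322-82287739 (minus). Counts cover annotated exons only. Between 1415 and 7982.5 counts per library stood behind Fgfr1, 1792 to 4869 behind Fgfr2 and 1497 to 6291 behind Fgfr3, so counting error was small beside the spread between animals.

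**Figure D1:**
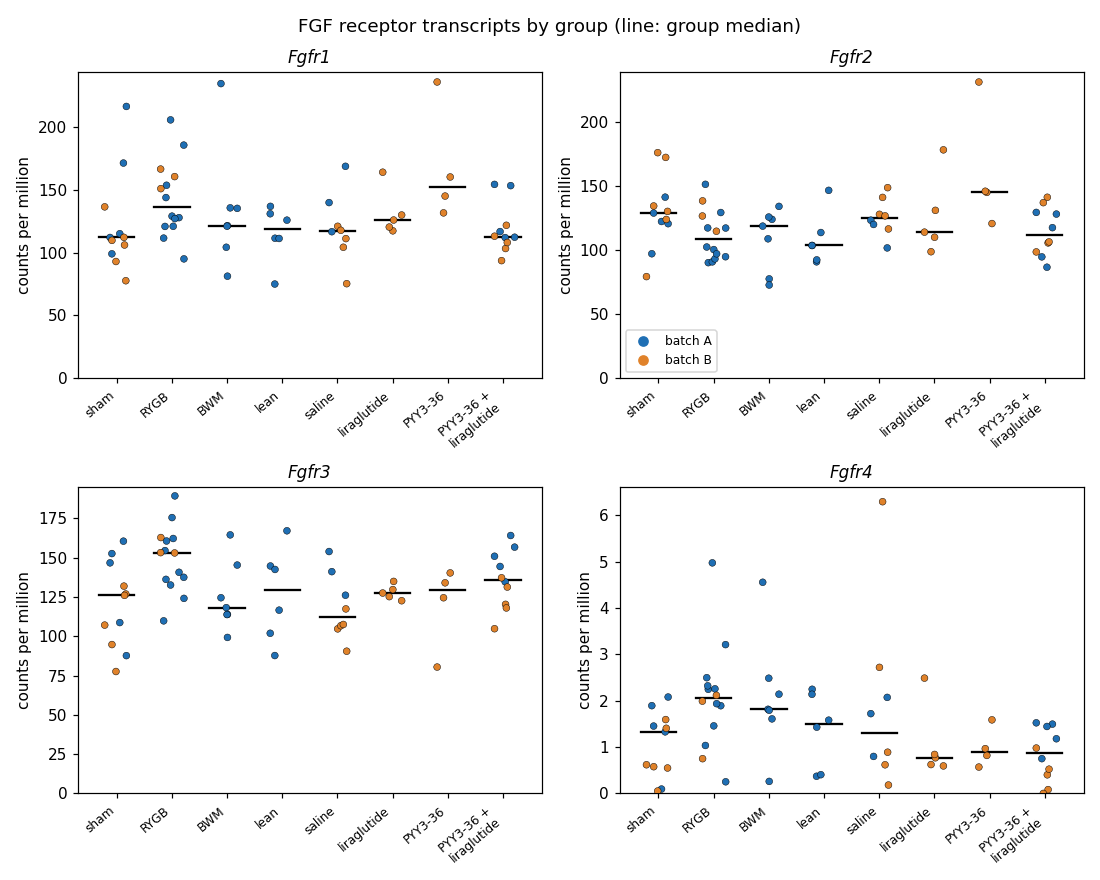
Levels of the 4 FGF receptor transcripts (CPM, linear axis from 0) in each library by group, with batch A in blue, batch B in orange and a line at the group median. The Fgfr3 medians were 153.1 CPM in RYGB and 126.0 in sham animals, and the groups overlap for every receptor when both batches are pooled.

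RYGB was compared with sham operation to ask which receptor transcripts differ after bypass surgery. In edgeR's quasi-likelihood test 0 of the 5 members tested passed an adjusted p of 0.05, as in DESeq2, and 1 (Fgfr3) had an unadjusted p under 0.05. Across all 21871 genes tested, 13% passed in this comparison (6.52% higher and 6.53% lower after RYGB, 2.37% with an absolute log2 fold change over 1), and 30% had an unadjusted p under 0.05. Fgfr3 came nearest to the threshold. Its CPM was 109.8, 153.1 and 189.3 (lowest, median, highest) in the 14 RYGB-treated animals and 77.6, 126.0 and 160.5 in the 11 sham-treated animals. The groups overlapped, with 12 of 14 RYGB libraries above the sham median and 5 above the highest sham library. The fitted log2 fold change of Fgfr3 was 0.26 ± 0.10 (SE, adjusted p = 0.0763, 95% interval 0.05 to 0.46).

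The batches gave different pictures of Fgfr3. In batch A its median was 140.7 CPM in 11 RYGB and 146.7 in 5 sham libraries (log2 fold change 0.17, adjusted p = 0.43). In batch B the 3 RYGB libraries, at 153.0, 162.8 and 153.2, all lay above the highest of 6 sham libraries, 131.9 (log2 fold change 0.50, adjusted p = 0.073 in edgeR's test). Of all genes, 2.74% passed within batch B and 21.8% had an unadjusted p under 0.05. How many genes separated these groups fully was not counted. The difference between the batches was not past the threshold (log2 0.33 ± 0.21, adjusted p = 0.614). Without RYGB replicate 11, the lowest RYGB library, Fgfr3 passed (0.29, adjusted p = 0.0342), without sham replicate 2 it was 0.20 (adjusted p = 0.192), and without the 12 libraries low in hypothalamic markers it was 0.17 (adjusted p = 0.237).

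Fgfr1 stood at 95.1, 136.5 and 205.8 CPM in RYGB-treated and at 77.6, 112.1 and 216.5 CPM in sham-treated animals, and the groups overlapped (log2 fold change 0.17 ± 0.13 (SE), adjusted p = 0.417). Its log2 fold change was -0.0458 among batch A animals (adjusted p = 0.899) but 0.59 among those of batch B (adjusted p = 0.106). The 3 RYGB libraries of batch B, at 160.6, 151.0 and 166.6 CPM, lay above all 6 sham libraries, which reached 136.5. Within batch B, 21.8% of all genes had an unadjusted p under 0.05, and the share of genes with separate ranges was not counted. The batch difference of Fgfr1 had an unadjusted p of 0.0267 and an adjusted p of 0.395. Fgfr2 was at 90.1, 108.4 and 151.2 CPM in RYGB-treated and at 79.2, 128.8 and 175.9 CPM in sham-treated animals (log2 fold change -0.16 ± 0.11, adjusted p = 0.342, 95% interval -0.39 to 0.06). Only 3 of 14 RYGB libraries were above the sham median of Fgfr2, and the ranges still overlapped.

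Fgfr4 (chr17:9990072-10004339, minus strand) had counts of 0 to 155 per library with a median of 40. It stood at 0.251, 2.05 and 4.98 CPM in RYGB-treated and at 0.0518, 1.33 and 2.08 CPM in sham-treated animals. With 11 of 14 RYGB libraries above the sham median and 7 above the highest sham library, the log2 fold change of Fgfr4 was 0.78 ± 0.46 (adjusted p = 0.247, 95% interval -0.14 to 1.70). It was 0.68 within batch A (adjusted p = 0.499) and 1.01 within batch B (adjusted p = 0.455). Ffar4 differed little between these groups (log2 fold change 0.25 ± 0.79, adjusted p = 0.862), at 0, 0.115 and 0.580 CPM after RYGB and 0, 0.110 and 0.265 after sham operation.

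BWM animals were set against sham and RYGB animals to separate food restriction from surgery. Of the FGF receptors none passed in either comparison. Against sham, BWM animals had log2 fold changes of 0.01 for Fgfr1 (95% interval -0.32 to 0.35), -0.16 for Fgfr2 (-0.44 to 0.12), -0.04 for Fgfr3 (-0.29 to 0.21) and 0.67 for Fgfr4 (-0.44 to 1.78). BWM animals had Fgfr3 levels of 99.3, 118.2 and 164.5 CPM, and 13 of 14 RYGB libraries exceeded that BWM median. RYGB over BWM gave 0.30 ± 0.12 for Fgfr3 (unadjusted p = 0.0125, adjusted p = 0.302) and 0.23 within batch A (adjusted p = 0.59). Fgfr1 levels in the 7 BWM libraries were 81.3, 121.5 and 234.7 CPM, and Fgfr4 levels were 0.260, 1.82 and 4.56 CPM, both overlapping the sham and RYGB ranges.

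Ffar4 (chr1:256786124-256804156, plus strand) was the 1 member called, in RYGB versus BWM, where 0.343% of all genes passed. Counts were 0 in 19 of 65 libraries, and the median was 3. Counts of 10 or more came from BWM replicates 5 (225) and 7 (17) and RYGB replicates 1 (17) and 11 (14). The only other such library was PYY3-36 + liraglutide replicate 9 (14). The filter asks for about 10 counts in at least 4 libraries, the size of the smallest group. Ffar4 thus passed it only with the BWM libraries, the group in which it was high, and its call carries that limit. In the 7 BWM libraries Ffar4 stood at 0.0324, 0.291, 0.227, 0.126, 8.08, 0 and 0.500 CPM, so that replicate 5 was far above the rest. That library held 225 of the 447 Ffar4 counts of the whole series. The log2 fold change was -3.09 ± 0.74 for RYGB over BWM (adjusted p = 0.04), 3.34 ± 0.91 for BWM over sham (adjusted p = 0.0774, 0.32% of all genes passed, 0.311% as higher in BWM) and 4.26 ± 1.06 for BWM over saline (adjusted p = 0.139, 0.0412% of all genes passed and 6.47% had an unadjusted p under 0.05). Without BWM replicate 5, RYGB over BWM became -0.36 (adjusted p = 0.873) and BWM over sham became 0.62 (adjusted p = 0.861). Within batch A, RYGB over BWM was -2.97 (adjusted p = 0.14). The call was also lost with DESeq2 (adjusted p = 0.0987), with no filter on low counts (adjusted p = 0.0538) and without any 1 of 10 RYGB libraries (adjusted p up to 0.0748).

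**Figure D2:**
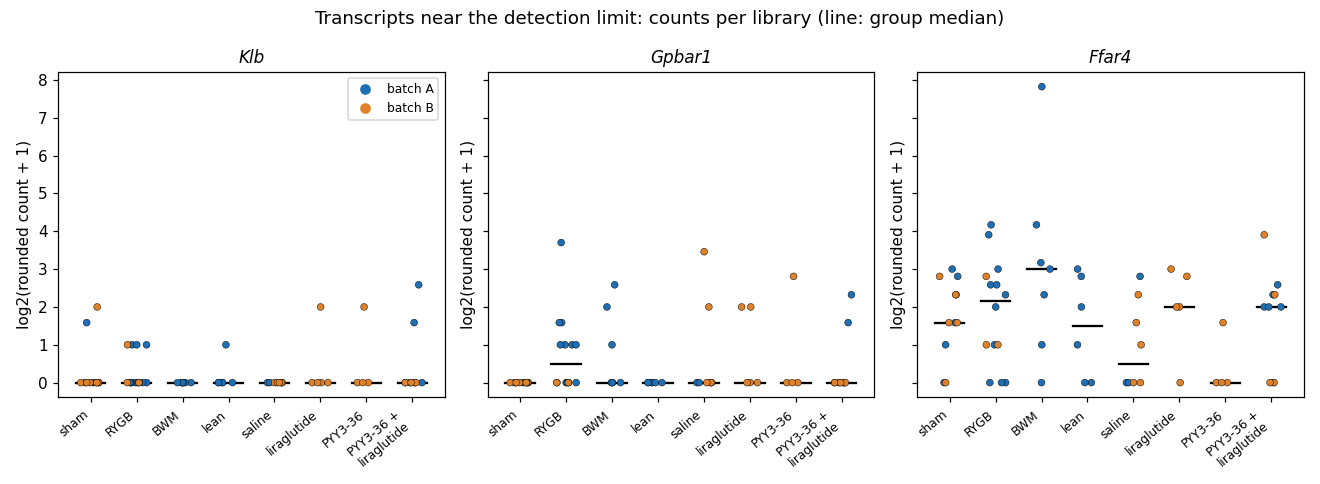
Rounded counts of Klb, Gpbar1 and Ffar4 per library, as log2(count + 1), by group, with batch A in blue, batch B in orange and a line at the group median. Most points of Klb and Gpbar1 lie at 0, and BWM replicate 5 stands alone at 225 counts of Ffar4.

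BWM replicate 5 was also the library with 76830 CPM of pituitary markers. In it, the pituitary transcription factor Pou1f1 reached 174.1 CPM, against a BWM median of 0.109. Over 65 libraries Ffar4 followed the pituitary marker sum with a Pearson r of 0.511 on the log2(CPM + 1) scale, but with a Spearman rho of 0.200. Without BWM replicate 5, r was 0.162 (n = 64), and without the 2 libraries farthest from the median of that sum it was 0.0683. The 3 genes most like Ffar4 over the 65 libraries were Pou1f1 (r = 0.916), the angiotensin receptor gene Agtr1b (r = 0.908) and the plakophilin gene Pkp3 (r = 0.874). Their Spearman rho was -0.0102, 0.0747 and 0.180, and without BWM replicate 5 their r fell to 0.191, 0.173 and 0.149. In the remaining 64 libraries the closest genes were Tap1 (r = 0.443), B4galt4 (0.438) and Trim6 (0.427). The part of pituitary tissue in the Ffar4 result was not tested.

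**Figure D3:**
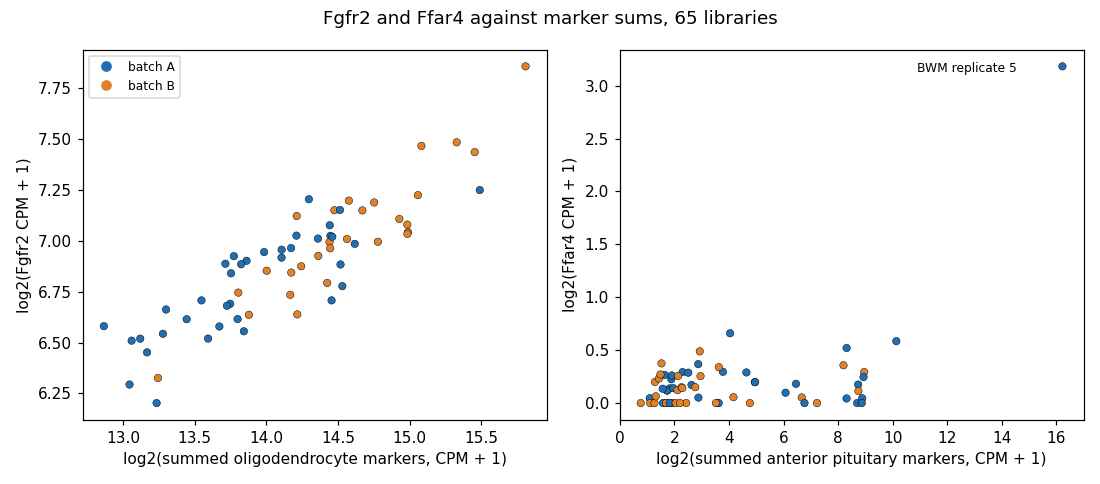
Left, Fgfr2 against the sum of 6 oligodendrocyte markers, and right, Ffar4 against the sum of 8 anterior pituitary markers, in 65 libraries (both axes log2 of CPM + 1, batch A blue, batch B orange). Fgfr2 rises with the marker sum along the whole range (r = 0.878), whereas the Ffar4 relation (r = 0.511) falls to r = 0.162 without the library at the upper right, BWM replicate 5.

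Klb (chr14:44529523-44614093, minus strand) and Gpbar1 (chr9:81555914-81560931, plus strand) had too few counts for the edgeR fit and were left out of it. Klb had a count in 12 of 65 libraries, 23.7 counts in all, and at most 5, in PYY3-36 + liraglutide replicate 2. No BWM and no saline library held a Klb read. Gpbar1 had a count in 17 libraries, 59.5 in all, with up to 12 in RYGB replicate 2 and 10 in saline replicate 5. In batch A, 7 of 11 RYGB, 3 of 7 BWM and 2 of 5 PYY3-36 + liraglutide libraries held a Gpbar1 read. All 5 sham, 6 lean and 3 saline libraries of that batch were at 0. Apart from replicate 2, the RYGB libraries with a read held 1 or 2 counts. In batch B, all 3 RYGB, all 6 sham and all 5 PYY3-36 + liraglutide libraries were at 0. Of the others in batch B, 3 of 5 liraglutide, 3 of 4 PYY3-36 and 3 of 5 saline libraries were at 0. For a single library a count of 0 allows up to 3 counts, between 0.0821 and 0.15 CPM at these depths and for counting error only. Levels of this size cannot be told from 0 here. Within-batch exact permutation tests of log2(CPM + 1), two-sided and unadjusted, gave a lowest p of 0.245 for Klb and 0.182 for Gpbar1 over 14 tests each. In some of these tests every library was at 0, and in others a single library held all the counts. Such tests could not reach a small p and decide nothing.

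Drug treatment was compared with saline infusion. In edgeR's test, as in DESeq2, 0 of 5 members passed in each of the 3 comparisons. An unadjusted p under 0.05 was found for 0 members with liraglutide, 1 with PYY3-36 (Fgfr1) and 1 with the combination (Fgfr4). Of all genes, 0%, 0% and 0.00457% passed for liraglutide, PYY3-36 and their combination, while 2.08%, 7.54% and 2.53% had an unadjusted p under 0.05. Liraglutide-treated animals had Fgfr1 at 164.1, 126.0, 117.4, 130.0 and 120.4 CPM, against 75.3, 117.2 and 169 (lowest, median, highest) in 8 saline-treated animals (log2 fold change 0.23 ± 0.19 (SE), adjusted p = 1, 95% interval -0.15 to 0.62). Fgfr3 stood at 127.5, 134.9, 129.7, 122.6 and 125.2 CPM after liraglutide. All of these lay above the 5 saline libraries of the same batch, which spanned 90.5 to 117.4. In that comparison 3.56% of all genes had an unadjusted p under 0.05, and the share with separate ranges was not counted. In edgeR's test the within-batch log2 fold change of Fgfr3 was 0.28 (unadjusted p = 0.0699, adjusted p = 1), and 0.00914% of all genes passed there.

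After PYY3-36, Fgfr1 stood at 160.3, 236.0, 145.1 and 131.7 CPM, above all 5 saline libraries of batch B, which reached 121.0. Over both batches the log2 fold change was 0.59 ± 0.20 (unadjusted p = 0.00492, adjusted p = 0.652). Within batch B it was 0.67 (adjusted p = 0.46). There 0.00457% of all genes passed and 10.1% had an unadjusted p under 0.05. How many genes separated the groups fully there was not counted. PYY3-36 replicate 2, the highest in Fgfr1, was among the 12 libraries low in hypothalamic markers. It also had 231.0 CPM of Fgfr2, the highest value of the series, with only 80.4 CPM of Fgfr3 and the highest oligodendrocyte marker sum, 57380 CPM. Without that library the Fgfr1 value was 0.38 (adjusted p = 0.951), and without all 12 it was 0.25 (adjusted p = 0.956).

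The combination of PYY3-36 and liraglutide showed its widest difference in Fgfr4, at 0, 0.865 and 1.52 CPM in 10 treated animals and 0.181, 1.31 and 6.30 CPM in 8 saline animals. The log2 fold change of Fgfr4 was -1.44 ± 0.54 (unadjusted p = 0.0101, adjusted p = 0.9998). Batch A alone gave -0.26 and batch B alone -2.37, and the batch difference had an adjusted p of 1. Without saline replicate 7, at 6.30 CPM, the value was -0.79 (adjusted p = 1). The other 4 members tested lay between -0.11 and 0.84, with adjusted p = 0.9998 for each. Ffar4 stood at 0, 0, 0.0820 and 0 CPM after PYY3-36, with at most 2 counts in all 4 libraries.

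No member passed between lean and sham animals (edgeR, 0 of 5 also at an unadjusted p under 0.05 and 0 in DESeq2), with log2 fold changes of -0.20 for Fgfr1 (95% interval -0.55 to 0.15), -0.17 for Fgfr2 (-0.46 to 0.13), -0.03 for Fgfr3 (-0.29 to 0.23), 0.05 for Fgfr4 (-1.12 to 1.23) and -0.47 for Ffar4 (-2.54 to 1.602). Here 0% of all genes passed and 12.2% had an unadjusted p under 0.05. Between the control groups, sham over saline gave -1.02 ± 0.52 for Fgfr4 (adjusted p = 0.397), the other 4 ranging from 0.01 to 0.92, where 0.0137% of all genes passed, all lower in sham. Against saline, RYGB gave 0.26 ± 0.11 for Fgfr3 (adjusted p = 0.9999). The sham and saline groups each serve several of these comparisons, which are therefore not independent.

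**Figure D4:**
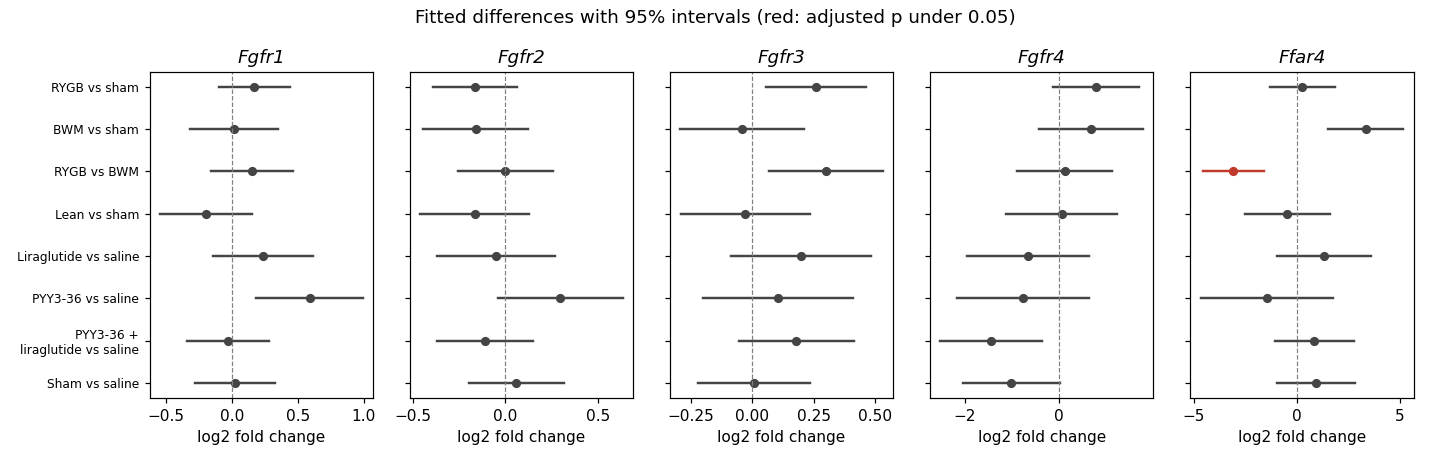
Fitted log2 fold changes (points) with 95% intervals (lines) for the 5 members tested, one row per comparison, each panel on its own horizontal scale. The single red point is Ffar4 in RYGB versus BWM at -3.09, and the intervals of Fgfr4 and Ffar4 are wider than those of the other receptors.

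Batch itself moved 1 member past the threshold. Fgfr3 was lower in batch B than in batch A by a log2 value of -0.21 ± 0.08 (adjusted p = 0.0294), a contrast in which 40.7% of all genes passed. Fgfr1 (-0.22, adjusted p = 0.0868), Fgfr2 (0.17, adjusted p = 0.132) and Fgfr4 (-0.65, adjusted p = 0.156) did not pass.

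The receptors differed in the genes whose levels they followed across libraries, which share dissection and depth. Given as a description, Fgfr2 tracked the summed oligodendrocyte markers with r = 0.878 (Spearman rho 0.863), with 0.820 and 0.903 inside batches A and B, and with 0.867 when the 2 farthest libraries were left out. The 3 genes most like Fgfr2 were the myelin gene Mog (r = 0.929), the choline transporter Slc44a1 (0.925) and transferrin, Tf (0.924). Over both batches, the oligodendrocyte marker sum itself had a median of 14600 CPM in RYGB and 22540 in sham libraries. The ranges were 7470 to 45990 and 9702 to 44880. In batch A (11 of 14 RYGB and 5 of 11 sham libraries) the medians were closer, at 13757 and 16211 CPM. In batch B the RYGB sums were 16415, 18981 and 22236 CPM, and sham libraries ran from 9702 to 44880. The part of this sum in the lower Fgfr2 median after RYGB was not tested.

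Fgfr1 was most like the hedgehog receptor component Smo (r = 0.787), the Notch co-activator Maml2 (0.770) and Arhgap42 (0.750), and its r was -0.547 with neuronal, -0.495 with striatal, 0.496 with anterior pituitary and 0.440 with astrocyte markers. Fgfr3 followed the astrocyte-enriched gene Etnppl (0.815), Carmil1 (0.784) and Frmpd3 (0.760), and correlated at 0.518 with the hypothalamic and at 0.254 with the astrocyte marker sum. Fgfr4 followed the collagen genes Col5a2 (0.709) and Col4a6 (0.705) and the complement gene C1r (0.706). With meningeal fibroblast markers its r was 0.604, and with neuronal markers -0.589. Over both batches, the meningeal sum had a median of 160.8 CPM in RYGB (37.1 to 1267) and 53.3 in sham libraries (23.9 to 334.3). In batch A it ran from 37.1 to 1267 CPM in RYGB and from 23.9 to 60.1 CPM in sham libraries. In batch B the RYGB sums of 59.7, 71.3 and 106.3 CPM lay inside the sham range of 39.1 to 334.3 CPM. The part of the meningeal sum in the Fgfr4 values was not tested. Among the members themselves, Fgfr1 and Fgfr4 were the closest pair (r = 0.561), and the other pairs ranged from -0.322 to 0.341.

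Partner genes of the receptors were counted over 10 lists covering ligands, co-receptors, signal relay and bile acid and fatty acid handling. In RYGB versus sham 11 of the 104 partner genes tested passed (10.6%, 8 higher and 3 lower), against 13% of all genes, 6.52% of them higher. Against saline, 0 of the 104 passed in edgeR's test in either RYGB or BWM animals, where 0.00457% and 0.0412% of all genes passed. Among the 11, Kl, encoding alpha-Klotho, had the largest rise over sham. Kl was at 1.24, 2.97 and 15.4 CPM in RYGB-treated and at 0.0727, 0.619 and 1.13 CPM in sham-treated animals, so that the ranges did not overlap. The share of all genes whose ranges did not overlap was not counted. The log2 fold change of Kl was 2.47 (adjusted p = 0.00113) in RYGB and 2.31 (adjusted p = 0.0286) in BWM animals, both against the same sham group. After RYGB it passed within each batch (2.41, adjusted p = 0.0167 in A, and 2.69, adjusted p = 0.0357 in B), where 8.64% and 2.74% of all genes passed. In BWM it did not pass without BWM replicate 3 or 5 (adjusted p = 0.0819 and 0.0882) or without sham replicate 2, 3 or 5. Kl did not pass against the saline group. Saline animals had Kl at 0.363, 1.28 and 4.96 CPM, overlapping both RYGB and BWM animals, and the log2 fold change over saline was 0.82 for RYGB (unadjusted p = 0.0841, adjusted p = 1) and 0.66 for BWM (adjusted p = 0.836). Sham animals themselves lay below saline in Kl (-1.64, unadjusted p = 0.00126, adjusted p = 0.229). Kl is also abundant in choroid plexus, whose 6 markers summed to 9.17 to 3596 CPM in RYGB (median 46.2), 8.43 to 685.4 in sham (median 45.8) and 24.7 to 2102 in BWM libraries (median 90.8). Their part was not tested.

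Of 14 FGF ligand genes tested in RYGB versus sham, 0 were higher and 1 lower. That 1 was Fgf16, at -2.47 (adjusted p = 0.0366), with a total of 15 counts in 14 RYGB and 55 in 11 sham libraries, and it did not pass within batch A (adjusted p = 0.0789) or without sham replicate 1 (adjusted p = 0.0941). Fgf21, the endocrine ligand that uses Klb, was at 0.225, 0.703 and 1.02 CPM in RYGB and at 0.155, 0.961 and 1.71 CPM in sham animals (log2 fold change -0.79, adjusted p = 0.0672). It passed once the 12 libraries low in hypothalamic markers were left out (-1.01, adjusted p = 0.0268), where 5.36% of all genes passed. That alternative was chosen after seeing the data. In saline animals Fgf21 was at 0.0878, 0.387 and 0.799 CPM, with a median below those of RYGB and sham, and it did not pass between RYGB and saline. Fgf19, the rat gene for the ileal FGF, had at most 16 counts per library (log2 fold change -0.49, adjusted p = 0.596), and the neuronal ligand Fgf1 stood at 14.02, 48.8 and 85.6 CPM in RYGB animals (0.44, adjusted p = 0.343). The 12 heparan sulfate partners had 0 higher and 1 lower, the glypican gene Gpc1 (-0.40, adjusted p = 0.0372, but -0.0527 within batch B). Of 17 genes of the receptor signal relay, the exchange factor Sos1 rose (0.37, adjusted p = 0.0122) and Hras fell (-0.43, adjusted p = 0.0241). Sos1 did not pass within batch A (adjusted p = 0.103), within batch B (0.0738) or with the replicate block (0.0512). Without sham replicate 2, Hras was at -0.32 (adjusted p = 0.0986). None of 15 FGF feedback and target genes passed.

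Among 8 bile acid receptor and transporter genes tested, none passed in RYGB versus sham. The nuclear bile acid receptor Nr1h4 (FXR) was at 0, 0.0669 and 0.667 CPM in RYGB and at 0, 0.145 and 0.658 CPM in sham animals, with a log2 fold change of -0.70 (adjusted p = 0.52). Of 10 genes of bile acid and oxysterol synthesis none passed there, and 1 passed in BWM versus sham. This was Cyp39a1, an oxysterol hydroxylase (2.22, adjusted p = 0.0118), which stood at 0.324, 0.909 and 13.1 CPM in BWM animals and was lower in RYGB than in BWM animals (-1.76, adjusted p = 0.017). Without BWM replicate 6, BWM over sham was 1.05 (adjusted p = 0.195). Of the other fatty acid receptors, Ffar1 was at 0 in all 65 libraries, and none of the 2 genes tested passed.

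The fatty acid uptake and nuclear sensing list had 4 of 15 genes higher in RYGB than in sham animals and 0 lower. Of all genes, 13% passed in this comparison, 6.52% as higher, and over the 10 lists 10.6% of the tested genes passed. Within batches A and B, 8.64% and 2.74% of all genes passed. Rxra, the retinoid X receptor that pairs with FXR and the PPARs, was at 2.98, 10.1 and 13.3 CPM in RYGB and 2.15, 4.43 and 5.51 CPM in sham animals (log2 fold change 1.161, adjusted p = 0.000913). It passed in both batches (adjusted p = 0.00612 in A, 0.0421 in B), but over saline it was 0.35 (adjusted p = 1). The others were Cpt1a, the carnitine palmitoyltransferase of mitochondrial fatty acid import (0.41, adjusted p = 0.013), the acyl-CoA synthetase Acsl6 (0.27, adjusted p = 0.0244) and the transporter Slc27a1 (0.20, adjusted p = 0.0389). Acsl6 was at 0.12 within batch A (adjusted p = 0.496). Slc27a1 no longer passed in 14 of 33 alternatives, among them batch A alone (adjusted p = 0.0579), batch B alone (0.093) and the replicate block (0.287). Of 8 G protein genes, Gnaq, an alpha subunit used by GPR120 (1.18, adjusted p = 0.00429), and Gna11 (0.62, adjusted p = 0.034) rose and 0 fell. Neither passed within batch A (0.94 and 0.33, adjusted p = 0.0892 and 0.451). Over both batches, 6.52% of all genes were called higher.

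In BWM versus sham, the lists gave 4 calls among 104 genes (3.85%), each higher in BWM, namely Kl, Cyp39a1, the FGF feedback inhibitor Spry1 (0.78, adjusted p = 0.0271) and Cpt1a (0.60, adjusted p = 0.0304). Of all genes 0.32% passed, and 68 of those 70 were higher. Without BWM replicate 5, Spry1 was at 0.66 (adjusted p = 0.175) and Cpt1a at 0.39 (adjusted p = 0.272). Within batch A, Spry1 did not pass (adjusted p = 0.0797), whereas Cpt1a did (adjusted p = 0.00741). Of 25 alternatives, 10 lost the Spry1 call and 9 the Cpt1a call, among them the replicate block and several single sham libraries left out. The median log2 fold change of the tested list genes in RYGB versus sham ran from -0.20 for bile acid receptors and transporters to 2.28 for the 3 Klotho relatives and decoy receptor, against -0.02 over all 21871 genes. Of those 3 genes, 1 (Kl) was called and 1 lay below 0, and for RYGB over saline their median was 0.31 with 0 called. No list gene passed in the lean or drug comparisons or between sham and saline.

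**Figure D5:**
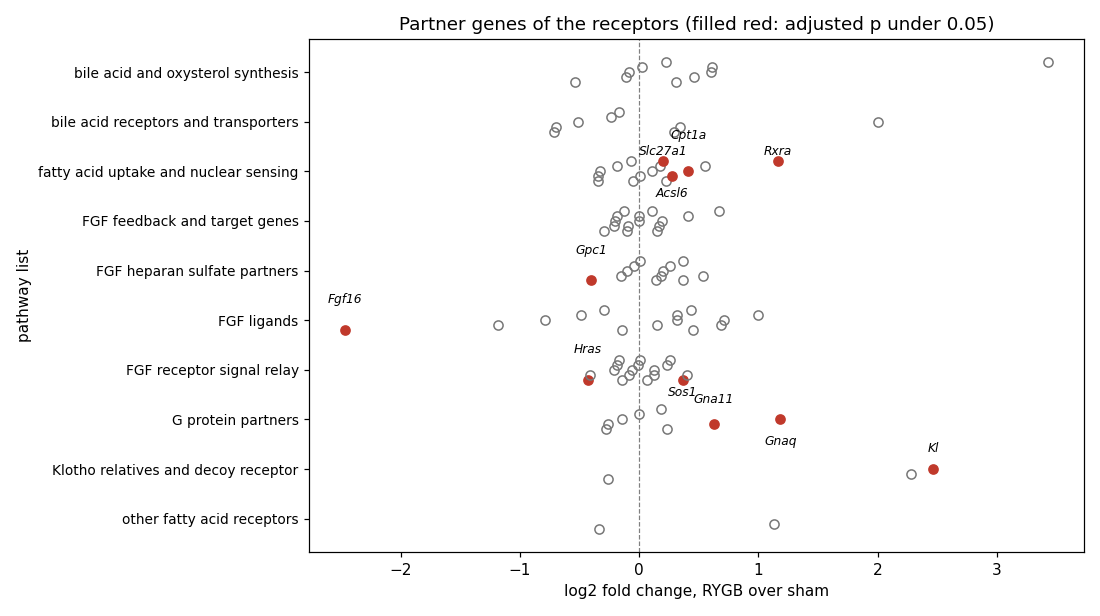
Log2 fold change of each tested partner gene, RYGB over sham (horizontal axis), by pathway list (rows), with genes of adjusted p under 0.05 filled in red and named. Kl at 2.47 and Fgf16 at -2.47 mark the ends of the called genes, and most genes lie near 0.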

How the data were processed

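RNA of whole hypothalamus was sequenced from poly-A selected, strand-specific libraries (single-end, 75 nt). According to the labels and the study's methods, the authors trimmed reads with cutadapt 1.16, 2.1 or 2.5, aligned them with STAR 2.7.2b to Rnor_6.0 and deposited estimated counts per gene from featureCounts 1.6.4, which split multi-mapping and overlapping reads into fractions (30.257% of non-zero values were not whole, at a tolerance of 1e-06). A gene sharing reads with a near-identical copy can lose part of them in this way. For Fgfr2, Fgfr4 and Ffar4 all values were whole.

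Counts were rounded to whole numbers and fitted with edgeR 4.0.16 in R 4.3.3 (quasi-likelihood test, robust, TMM) on all 65 libraries with group and batch as terms. The filter kept genes by a minimum count of 10 and a total of 15, which left 21871 genes, and p-values were adjusted over them by Benjamini-Hochberg. A gene passed at an adjusted p under 0.05. Within-batch values came from a model of group-by-batch cells. CPM used TMM-scaled library sizes, and RPKM divided by exon length. Genes that failed the filter were tested by an exact permutation within batch. Marker sums added CPM. The scripts were tested on simulated data. Alternatives were DESeq2 1.42.0 as a test and its size factors, no filter, no batch term, a replicate block, single libraries left out, a fold threshold and, added after the data were seen, leaving out libraries under 200 CPM of hypothalamic markers.

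The members and lists were chosen with earlier results of these data known. Genes named were the 7 members, list genes that passed in RYGB or BWM versus sham (at most 4 of smallest p per list), 5 fixed partners (Fgf15 or Fgf19, Fgf21, Fgf1, Nr1h4, Ffar1) and, for likeness, the 3 genes of highest Pearson r. Libraries of a group came from separate animals, and within groups the 271 pairs differed by more than sampling noise (chi-square per degree of freedom 14.2 or more). Replicate numbers of liraglutide and saline animals deviated together (r 0.196 to 0.417 in 5 pairs, 2 of them in the same batch). No source ties these numbers to litters or days, and the block changed no call there.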

Additional observations from a re-analysis of the deposited data

Results flagged for a closer look

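In 30 sets of 4 to 10 libraries (5 members in 6 groups), 7 held a library far from the others by Dixon's gap criterion. Its chance rate of about 1 of 20 holds for normally distributed values. CPM of the low-count Ffar4 and Fgfr4 need not be so distributed, and the saline and PYY3-36 + liraglutide sets pool both batches. The 7 of 30 therefore cannot be read as an excess over that rate. Ffar4 was at 8.08 CPM in BWM replicate 5, with 0.500 as the next value. Ffar4 was at 0.0820 CPM in PYY3-36 replicate 3, with the other 3 libraries at 0. That value is 2 counts, any single non-zero count among zeros would stand out in this way, and the chance rate does not apply to it. In PYY3-36 + liraglutide replicate 9, Ffar4 was at 0.403 CPM, with 0.174 as the next value. Fgfr1 was at 234.7 CPM in BWM replicate 7, with 135.7 next, and at 164.1 CPM in liraglutide replicate 1, with 130.0 next. Fgfr4 was at 2.49 CPM in the same liraglutide library, with 0.842 next, and at 6.30 CPM in saline replicate 7, with 2.72 next. BWM replicate 7 and liraglutide replicate 1 also held the highest meningeal fibroblast marker sums of their groups, at 1268 and 590.1 CPM, and the part of these was not tested.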

How the results depend on the processing

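Counts of members called held under every alternative except as follows. In RYGB versus BWM the 1 call (Ffar4) became 0 within batch A, with no filter on low counts, with DESeq2 and with the replicate block, and leaving out single libraries gave 0 to 1. In RYGB versus sham the count of 0 became 1 with no batch term (Fgfr3), and single libraries left out gave 0 to 1. In BWM versus sham it became 1 with no batch term (Ffar4), again with 0 to 1 over single libraries (1 without BWM replicate 1, 2 or 6), and in BWM versus saline it became 1 with no batch term.

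Some uncalled log2 fold changes changed sign, and the cause was not tested. Not all were near 0 in the main fit, with Fgfr4 at -0.77 in PYY3-36 and -0.66 in liraglutide versus saline. With the replicate block, Fgfr1 was at -0.0166 in RYGB versus sham, -0.0901 in BWM versus sham, -0.00395 in sham versus saline, -0.0205 in RYGB versus saline and -0.0941 in BWM versus saline, Fgfr2 at 0.0331 in liraglutide versus saline and -0.023 in sham versus saline, and Fgfr4 at -0.0687 in lean versus sham. Replicate numbers otherwise share only a name (pair correlations -0.245 to 0.468), and the block lost the Ffar4 call (-2.64, adjusted p = 0.292).

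Within batch A, Fgfr1 was at -0.0458 in RYGB versus sham, -0.0983 in BWM versus sham, -0.0357 in RYGB versus saline and -0.0882 in BWM versus saline, Fgfr3 at -0.0972 in sham versus saline, and Fgfr4 at -0.00563 in lean versus sham, 0.51 in RYGB versus saline and 0.45 in BWM versus saline. Within batch B, Ffar4 was at -0.51 in RYGB versus sham, and Fgfr1 at 0.028 in PYY3-36 + liraglutide versus saline and -0.000548 in sham versus saline. With no batch term, Fgfr3 was at 0.0657 in BWM versus sham, 0.0785 in lean versus sham and 0.0841 in BWM versus saline, Fgfr4 at -0.0181 in RYGB versus BWM, 0.11 in RYGB versus saline and 0.13 in BWM versus saline, and Fgfr2 at 0.0377 in RYGB versus BWM and 0.00737 in liraglutide versus saline. In RYGB versus BWM, Fgfr2 was at 0.00501 with DESeq2, 0.00477 with DESeq2's size factors and 0.00609 with no filter, and Fgfr3 in sham versus saline was at -0.00459 with no filter. Without the 12 libraries low in hypothalamic markers, an alternative chosen after seeing the data, Fgfr4 was at -0.11 in RYGB versus BWM, Fgfr1 at 0.0198 and Fgfr3 at 0.0256 in lean versus sham, and Fgfr1 at -0.0958 and Fgfr2 at -0.00727 in sham versus saline.

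Leaving out single libraries moved values across 0 in these ranges. In RYGB versus sham Ffar4 ran from -0.0217 to 0.43, in BWM versus sham Fgfr1 from -0.18 to 0.13 and Fgfr3 from -0.14 to 0.00765, in RYGB versus BWM Fgfr2 from -0.0682 to 0.0563 and Fgfr4 from -0.0847 to 0.43, and in lean versus sham Fgfr3 from -0.12 to 0.0569 and Fgfr4 from -0.15 to 0.25. In PYY3-36 versus saline Fgfr4 ran from -1.11 to 0.00775, in liraglutide versus saline Fgfr2 from -0.19 to 0.0447 and Fgfr4 from -1.26 to 0.12, in PYY3-36 + liraglutide versus saline Fgfr1 from -0.0904 to 0.0412, in sham versus saline Fgfr1 from -0.0659 to 0.0897 and Fgfr3 from -0.0291 to 0.0617, and in RYGB versus saline Fgfr4 from -0.42 to 0.40. In BWM versus saline Fgfr1 ran from -0.16 to 0.13, Fgfr3 from -0.12 to 0.0215 and Fgfr4 from -0.66 to 0.23. In the Fgfr4 comparisons of PYY3-36, liraglutide, RYGB and BWM with saline, the change of sign came without saline replicate 7.

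For the called partner genes no alternative changed the sign. The call was lost in 58 of the fits without a single library and in 34 of the others, while Kl and Rxra passed in each fit of RYGB versus sham. The levels used unscaled library sizes as an alternative and moved by less than 1 SD. Depth limits Klb, Gpbar1 and Ffar4, whose medians lie at or under 3 counts.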
